A study of Arabidopsis thaliana with 12 samples.

Results

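The 5 genes described here encode proteins of lipid droplets, of oil assembly or of glycerol 3-phosphate supply, and none of them encodes an oleosin. They are LDAP1 (AT1G67360), LDAP2 (AT2G47780), SEIPIN1 (AT5G16460), PDAT2 (AT3G44830) and GPDHC1 (AT2G41540). They were chosen by locus, with earlier results of these data known. The probe table of the array design gave 1 probe set to each, so 5 of the 22746 tested probe sets are described. Transcripts were measured in Arabidopsis thaliana seedlings 8 days old on ATH1 arrays, which give 1 signal per probe set, with 3 arrays in each of 4 groups and 12 in all. The seedlings were wild type (WT) or line 2-8 of ESTpro:FUS3-strong, both on MS-based medium without sucrose or with 1.5% sucrose. Line 2-8, called FUS3 below, is a single transgenic line in which estradiol switches on FUSCA3, a transcription factor with a B3 domain known for its role in seed maturation. The treatment label names 5 µM estradiol for line 2-8 alone, but the design text describes induction for both genotypes. It is therefore not settled if WT was given estradiol, and FUS3 effects below compare the induced line with WT.

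A lipid droplet is a core of triacylglycerol, the storage form of plant oil, under a single layer of phospholipid that carries coat proteins. In seeds the coat is mostly oleosin, while lipid droplet-associated proteins (LDAPs) coat droplets in leaves and other vegetative tissue. SEIPINs sit in the endoplasmic reticulum where droplets form and shape the emerging droplet. Triacylglycerol is built on glycerol 3-phosphate, and its last acyl group can come from acyl-CoA or, through PDAT enzymes, from a phospholipid.

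The arrays were read from whole seedlings, so more cells of a type and more RNA per cell cannot be told apart. Markers of several tissues moved with the groups. These markers, like the 5 genes, were chosen with earlier results of these data known, so their movement is a description and not a test. The summed signal of 4 seed and embryo marker genes, among them PAP85, lay between 48.8 and 103 on the 6 WT arrays, between 6871 and 7744 in FUS3 without sucrose and between 83189.7 and 87719 in FUS3 with sucrose. Of 5 photosynthesis genes, all were called lower in FUS3 with sucrose, where 19.6% of all probe sets were. Their summed signal was 74654 to 80341 in FUS3 with sucrose against 138611 to 142837 in WT with sucrose. Without sucrose it was 157346 to 165891 in FUS3 and 151006 to 164751 in WT, and 1 of the 5, SBPASE, was called higher in FUS3. The root hair genes EXPA7 and EXPA18 summed to 245 to 299 in WT without sucrose, 571 to 631 in WT with sucrose, 438 to 637 in FUS3 without and 927 to 1143 in FUS3 with sucrose. FAMA, of the guard cell lineage, had a signal of 123 ± 38.5 (SD, n = 3) in FUS3 with sucrose and between 490 and 637 in the means of the other groups. The array's 25S ribosomal RNA control gave 9126 to 10465 in FUS3 with sucrose and 1778 to 4609 on the other 9 arrays. The ratio of 3′ to 5′ GAPDH signal, a measure of RNA integrity, was 0.97 to 1.04 in FUS3 with sucrose and 0.82 to 0.94 elsewhere. The same ratio did not set that group apart for actin (3.03 to 3.35 against 2.79 to 3.96) or ubiquitin (1.27 to 1.32 against 1.15 to 1.52). How far these shifts bear on the results below was not tested. The transgene itself, FUS3 (AT3G26790), has no probe set under its name in the probe table and was not analysed here.

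LDAP1, for a coat protein of leaf lipid droplets, rose with sucrose in both lines and with FUS3 on both media. The WT signals were 688, 930.3 and 886 without sucrose and 1919, 1994 and 2206 with it. In FUS3 without sucrose they were 1103, 1258 and 1126, and in FUS3 with sucrose 2726, 3461 and 2769.7. The 4 groups did not overlap and ran in the order WT without sucrose, FUS3 without sucrose, WT with sucrose, FUS3 with sucrose. Their means were 835 ± 129, 1163 ± 83.7, 2039.7 ± 149 and 2985 ± 412 (SD, n = 3). Every change below is a log2 difference taken after 16 was added to each signal, with its standard error (SE) from a limma model of all 12 arrays, and a gene is called where the adjusted p lies under 0.05. Sucrose raised LDAP1 by 1.28 (SE 0.12, limma adjusted p = 3.20e-06) in WT and by 1.34 (SE 0.12, 6.22e-07) in FUS3. Mean signals were 2.44 and 2.57 times those without sucrose.

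The differences of LDAP1 between FUS3 and WT were smaller in size than its sucrose effects, though this gap was not tested. LDAP1 rose by 0.48 (SE 0.12, limma adjusted p = 0.0134) in FUS3 without sucrose and by 0.54 (SE 0.12, 0.00236) with sucrose, which is 1.39 and 1.46 times the mean WT signal. The first of these calls was lost without replicate 2 of FUS3 (adjusted p = 0.0617), without replicate 1 of WT (0.0683) and in an unmoderated linear model (0.0544). AT1G67350, a gene that overlaps LDAP1 in the TAIR10.1 annotation, also rose in FUS3 without sucrose, by 0.26 (SE 0.07, limma adjusted p = 0.0181). It rose with sucrose in WT too, by 0.29 (SE 0.07, 0.00599). Its FUS3 difference with sucrose was 0.04 (SE 0.07), and whether the probes of either gene also bind transcripts of the other was not tested.

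LDAP2, the second coat protein gene of the family, rose in FUS3 on both media and rose with sucrose in FUS3, with no call for sucrose in WT. Its signals were 67.2, 86.9 and 70.0 in WT without sucrose, and 91.7, 116 and 72.4 when it was added. In FUS3 they were 320.3, 506 and 289.8 without sucrose, and 4507, 5357 and 5128 with it. The WT groups overlapped each other, and every FUS3 array lay above every WT array. Means were 74.7 ± 10.7 and 93.3 ± 21.8 in WT and 372 ± 117 and 4997 ± 439.6 in FUS3 (SD, n = 3). FUS3 raised LDAP2 by 2.06 (SE 0.20, limma adjusted p = 8.73e-06) without sucrose and by 5.53 (SE 0.20, 3.90e-11) with sucrose. The mean signal was 4.98 times that of WT without sucrose and 53.5 times with it. Sucrose added 3.73 (SE 0.20, limma adjusted p = 4.41e-09) in FUS3, whereas in WT the difference was 0.26 (SE 0.20, adjusted p = 0.396), with a 95% interval from -0.17 to 0.68. AT2G47790, which overlaps LDAP2 in the TAIR10.1 annotation, has no probe set of its own in the probe table and could not be read.

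SEIPIN1, which encodes the SEIPIN known mainly from embryos, read 11.3 or less on all 6 WT arrays and rose in FUS3. Its signals were 2.05, 3.38 and 4.07 in WT without sucrose and 11.3, 1.22 and 1.37 with sucrose. They were 9.64, 39.8 and 38.4 in FUS3 without sucrose, and 319.8, 434 and 409.6 in FUS3 with sucrose. The array's bacterial TrpnX controls read 0.55 to 43.4, so SEIPIN1 in WT and in FUS3 without sucrose lay within their range. Whether SEIPIN1 was expressed at all in those groups was not tested. Both FUS3 groups lay above WT on the same medium, although the lowest FUS3 array without sucrose was below 1 array of WT with sucrose. Means were 3.17 ± 1.03 and 4.64 ± 5.80 in WT and 29.3 ± 17.0 and 388 ± 60.1 in FUS3 (SD, n = 3). SEIPIN1 rose by 4.31 (SE 0.30, limma adjusted p = 5.37e-08) in FUS3 with sucrose, and sucrose raised it by 3.23 (SE 0.30, 1.01e-06) within FUS3. Signals this low make the size depend on the 16 added: the FUS3 effect with sucrose was 6.58 with 1 added and 2.71 with 64 added.

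Without sucrose the change of SEIPIN1 in FUS3 was 1.16 (SE 0.30, limma adjusted p = 0.0173). Leaving out replicate 2 or 3 of FUS3 ended this call (adjusted p = 0.0787 and 0.0667), as did leaving out replicate 1 of WT (0.0601). It was 2.66 with 1 added and 0.46 with 64 added. In WT the sucrose difference was 0.07 (SE 0.30, adjusted p = 0.901), with a 95% interval from -0.57 to 0.72.

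PDAT2 encodes a phospholipid:diacylglycerol acyltransferase, the kind of enzyme that moves an acyl group from a phospholipid to diacylglycerol, and rose only where FUS3 and sucrose came together among the comparisons made. Its signals were 3.09, 10.6 and 22.1 in WT without sucrose, 31.3, 30.0 and 5.87 with sucrose, and 6.37, 29.6 and 12.8 in FUS3 without sucrose. In FUS3 with sucrose they were 222, 276 and 168. The first 3 groups overlapped one another, and all 3 arrays of FUS3 with sucrose lay above the other 9. Signals of the first 3 groups lay within the range of the TrpnX controls, 0.55 to 43.4, and whether PDAT2 was expressed there was not tested. Means were 11.9 ± 9.58, 22.4 ± 14.3, 16.2 ± 11.997 and 222 ± 53.7 (SD, n = 3) in the same order. PDAT2 rose by 2.69 (SE 0.36, limma adjusted p = 3.95e-05) in FUS3 with sucrose and, within FUS3, by 2.92 (SE 0.36, 1.63e-05) with sucrose. These sizes also depend on the 16 added: with 1 added they were 3.52 and 3.91, and with 64 added 1.72 and 1.83.

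Neither factor alone changed PDAT2 past the threshold. The FUS3 difference without sucrose was 0.20 (SE 0.36, limma adjusted p = 0.783), with a 95% interval from -0.58 to 0.98. The sucrose difference in WT was 0.43 (SE 0.36, adjusted p = 0.442), with an interval from -0.35 to 1.21. AT3G44840, which overlaps PDAT2 in the annotation, had a FUS3 difference of -0.09 (SE 0.34) with sucrose.

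GPDHC1 encodes a cytosolic NAD-dependent glycerol 3-phosphate dehydrogenase, an enzyme that can make glycerol 3-phosphate, and rose in FUS3 on both media by small amounts. Its signals were 1242, 1196 and 1251 in WT without sucrose and 1564, 1541 and 1312 with sucrose. In FUS3 they were 1777, 1749.95 and 1682 without sucrose and 2157, 1837 and 2115 with sucrose. The 4 groups did not overlap, with means of 1229.5 ± 29.2, 1472 ± 139, 1736 ± 49.3 and 2036 ± 174 (SD, n = 3). GPDHC1 rose in FUS3 by 0.49 (SE 0.09, limma adjusted p = 0.00129) without sucrose and by 0.46 (SE 0.09, 5.63e-04) with it, or 1.41 and 1.38 times the mean WT signal.

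The sucrose calls of GPDHC1 lay at the threshold. The rise was 0.25 (SE 0.09, limma adjusted p = 0.0417) in WT and 0.22 (SE 0.09, 0.0498) in FUS3. With the median of each array subtracted these became 0.10 (adjusted p = 0.392) and 0.08 (0.503). Subtracting the median moved the median change of all probe sets for sucrose from 0.02 to -0.13 in WT and from 0.04 to -0.11 in FUS3. Quantile normalization also ended both calls (adjusted p = 0.0713 and 0.0694), as did 3 other forms of the model. With single arrays left out, the call stayed in 5 of 12 fits for WT and in 3 of 12 for FUS3. AT2G41550, which overlaps GPDHC1 in the annotation, had differences between -0.26 and -0.01 in the 4 comparisons, none called.

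**Figure D1:**
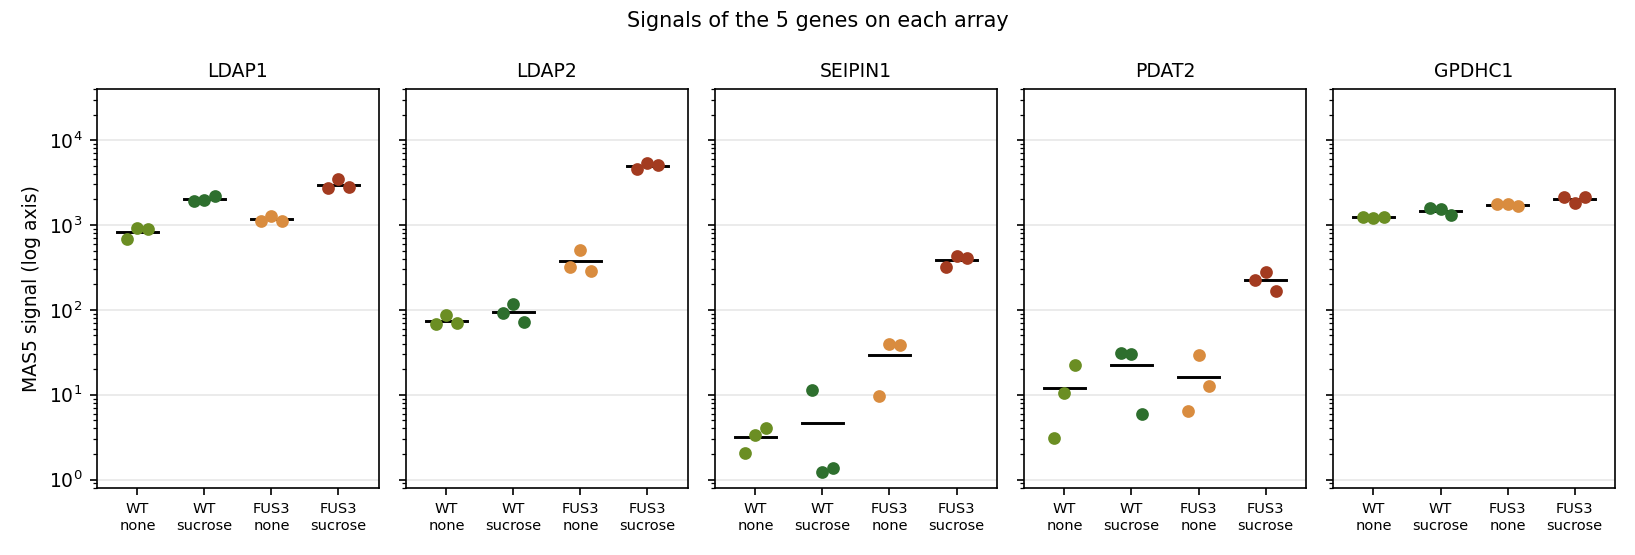
MAS5 signal (vertical axis, log scale) of the 5 genes on each of the 12 arrays, with points for single arrays and a black line for the mean of 3. LDAP1 and GPDHC1 lie between 688 and 3461 on every array, while LDAP2, SEIPIN1 and PDAT2 reach their highest signals in FUS3 with sucrose, at means of 4997, 388 and 222.

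Counted over the 5 genes, 4 rose in FUS3 without sucrose, where 9.5% of all tested probe sets were called higher. These 4 include LDAP1 and SEIPIN1, whose calls there were lost when some single arrays were left out. All 5 rose in FUS3 with sucrose, against 18.9% of all probe sets called higher. Sucrose raised 2 of 5 in WT (15.9% of all called higher) and 5 of 5 in FUS3 (21.8%), with the GPDHC1 calls at the threshold included. None of the 5 was called lower in any comparison, where 7.03%, 19.6%, 10.1% and 17.5% of all probe sets were, in the same order. Every array of the first group lay above every array of the second for 4, 5, 2 and 5 of the 5 genes, against 17.6%, 25.2%, 22.7% and 27.6% of all probe sets. The median change of the 5 genes was 0.49 in FUS3 without sucrose and 2.69 with it, beside 0.02 and 0.01 over all probe sets. For sucrose it was 0.26 in WT and 2.92 in FUS3, beside 0.02 and 0.04. In FUS3 against WT with sucrose, and with 16 added, 0.51% of all probe sets had a larger increase than LDAP2, 14.0% than LDAP1 and 17.1% than GPDHC1. No such rank is given for SEIPIN1 and PDAT2, whose low WT signals make it depend on the constant added. These comparisons share groups and are given side by side. Because the 5 genes were chosen with earlier results known, the counts do not test if such genes rise more often than others.

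**Figure D2:**
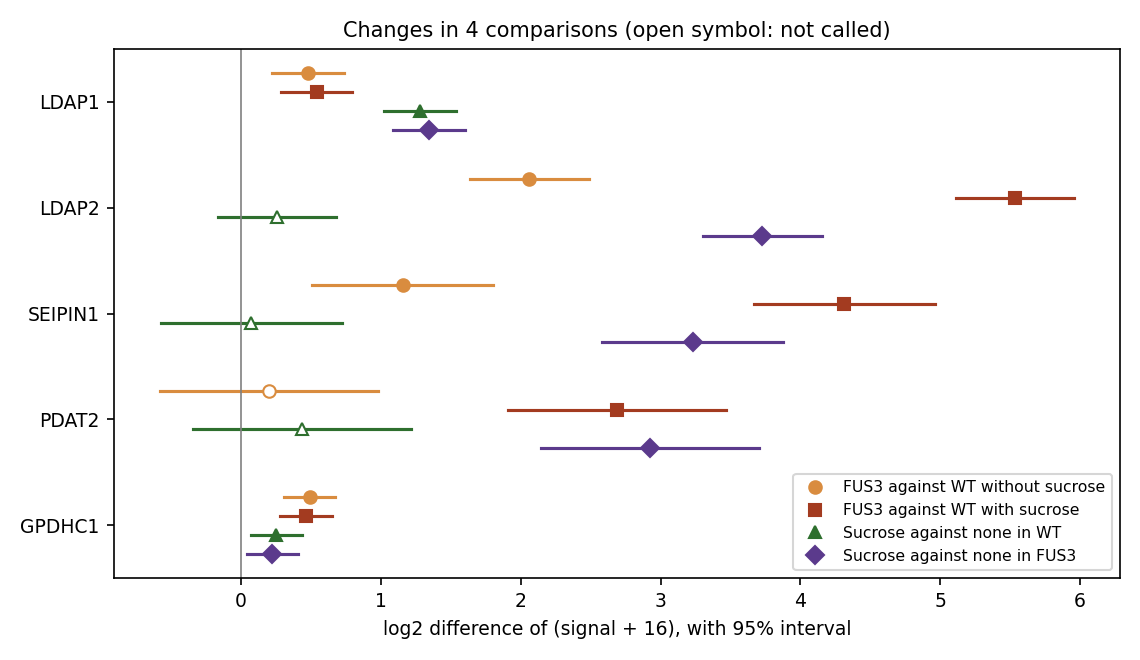
Log2 difference (horizontal axis, 16 added to each signal) of the 5 genes in 4 comparisons, with 95% intervals from the limma model and open symbols where the gene was not called. The 4 intervals of LDAP1 all lie above 0, and for LDAP2 the FUS3 effect is 2.06 without and 5.53 with sucrose.

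Whether FUS3 changed a gene by a different amount with and without sucrose was tested as the interaction, the second FUS3 effect minus the first. It was called for 3 of the 5 genes, all positive, where 9.78% of all probe sets had a positive call and 13.3% a negative one. The interaction was 3.47 (SE 0.28, limma adjusted p = 8.93e-07) for LDAP2, 3.16 (SE 0.43, 9.27e-05) for SEIPIN1 and 2.49 (SE 0.51, 0.00273) for PDAT2. For LDAP2 the sum of the single effects of FUS3 and of sucrose was 2.32, and the difference between both together and neither was 5.79. For SEIPIN1 these were 1.23 and 4.39, and for PDAT2 0.63 and 3.12. The single effects of SEIPIN1 and PDAT2 rest on signals within the range of the TrpnX controls. The signal with both factors was therefore 11.1, 8.92 and 5.62 times that given by the sum, on the scale with 16 added. With 1 or 64 added the interaction ran from 3.39 to 3.48 for LDAP2, from 2.26 to 3.92 for SEIPIN1 and from 1.65 to 3.02 for PDAT2, and all stayed called, PDAT2 at adjusted p = 0.0464 with 1 added.

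The other 2 genes gave no such call. The interaction of LDAP1 was 0.06 (SE 0.17, limma adjusted p = 0.849), with a 95% interval from -0.30 to 0.42, and that of GPDHC1 was -0.03 (SE 0.12, adjusted p = 0.907), with an interval from -0.29 to 0.23. For LDAP1 the single effects summed to 1.76 and both together gave 1.82. For GPDHC1 the values were 0.75 and 0.72. Any interaction within these intervals, positive or negative, is smaller in size than the values of the other 3 genes.

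Over the 12 arrays, LDAP2 and SEIPIN1 followed each other most closely of the 10 pairs among the 5 genes, with a Pearson correlation of 0.98 of log2 signals. PDAT2 had 0.93 with SEIPIN1 and 0.90 with LDAP2. LDAP1 had between 0.66 and 0.80 with each of the other 4, and GPDHC1 between 0.66 and 0.88. The 12 points of each correlation share the same arrays and 4 groups, so these values describe the group pattern and no more.

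The probe sets most like each gene over the 12 arrays were taken from the 13508 others that name 1 gene. For LDAP2 they were AtLEA4-1, a late embryogenesis abundant protein gene (r = 0.995), the MADS-box gene AGL67 (0.995) and AT3G19920 (0.994). Mean signals of AtLEA4-1 went from 62.4 and 71.0 in WT to 487 and 11056 in FUS3, without and with sucrose. For SEIPIN1 they were AT2G42560 (0.991), AT5G55750 (0.989) and the defensin-like gene PDF2.1 (0.989). LDAP1 was most like the beta-glucosidase gene BGLU28 (0.987), AT4G33550 (0.987) and AT5G12110 (0.986). BGLU28 had means of 71.6 in WT without sucrose, 602 in WT with sucrose, 168 in FUS3 without and 2255 in FUS3 with sucrose, the same order of groups as LDAP1. For PDAT2 the likest were AT1G78780 (0.979), AT5G51440 (0.973) and AT5G45920 (0.970), and for GPDHC1 AT1G73340 (0.967), AT2G37400 (0.967) and AT1G27435 (0.964). In all, 173 probe sets had a correlation above 0.95 with LDAP2, 147 with SEIPIN1, 77 with LDAP1, 26 with PDAT2 and 13 with GPDHC1.

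Related genes were read from lists of 77 loci, also chosen with earlier results known. Of these, 18 have a probe set of their own in the probe table. Among coat and assembly genes, 2 of 14 were measured. LDAP3 (AT3G05500), the third LDAP gene, had signals of 2938, 2679.8 and 3068 in WT without sucrose and 3103, 3035 and 2968 with it. In FUS3 they were 3554, 4835 and 4413 without sucrose and 6359, 7476 and 6628 with it. LDAP3 rose in FUS3 by 0.55 (SE 0.10, limma adjusted p = 0.00221) without sucrose and by 1.16 (SE 0.10, 5.94e-07) with sucrose, with an interaction of 0.61 (SE 0.14, 0.00664). Sucrose in WT gave 0.07 (SE 0.10, adjusted p = 0.688), where LDAP1 rose by 1.28. LDAP1 was called in all 4 comparisons, and LDAP2 and LDAP3 in all but sucrose in WT. Differences between the 3 genes were not tested. LDIP, which encodes a protein that binds LDAPs, was not called in any comparison, with differences between -0.25 and -0.08 and an interaction of 0.09 (SE 0.13).

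The oleosin genes, the coat genes of seed oil bodies, were measured for 4 of 8 loci. All 4 rose in both FUS3 comparisons, where 9.5% and 18.9% of all probe sets were called higher without and with sucrose. Their medians were 3.35 without and 7.61 with sucrose, beside 0.02 and 0.01 over all probe sets. None was called for sucrose in WT, where 15.9% of all were called higher and 10.1% lower. The oleosin interactions ran from 3.62 to 5.01, all called, where 9.78% of all probe sets had a positive call. That of LDAP2 was 3.47. OLEO3 went from 87.3 ± 22.6 in WT without sucrose to 14377 ± 996 in FUS3 with sucrose.

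**Figure D3:**
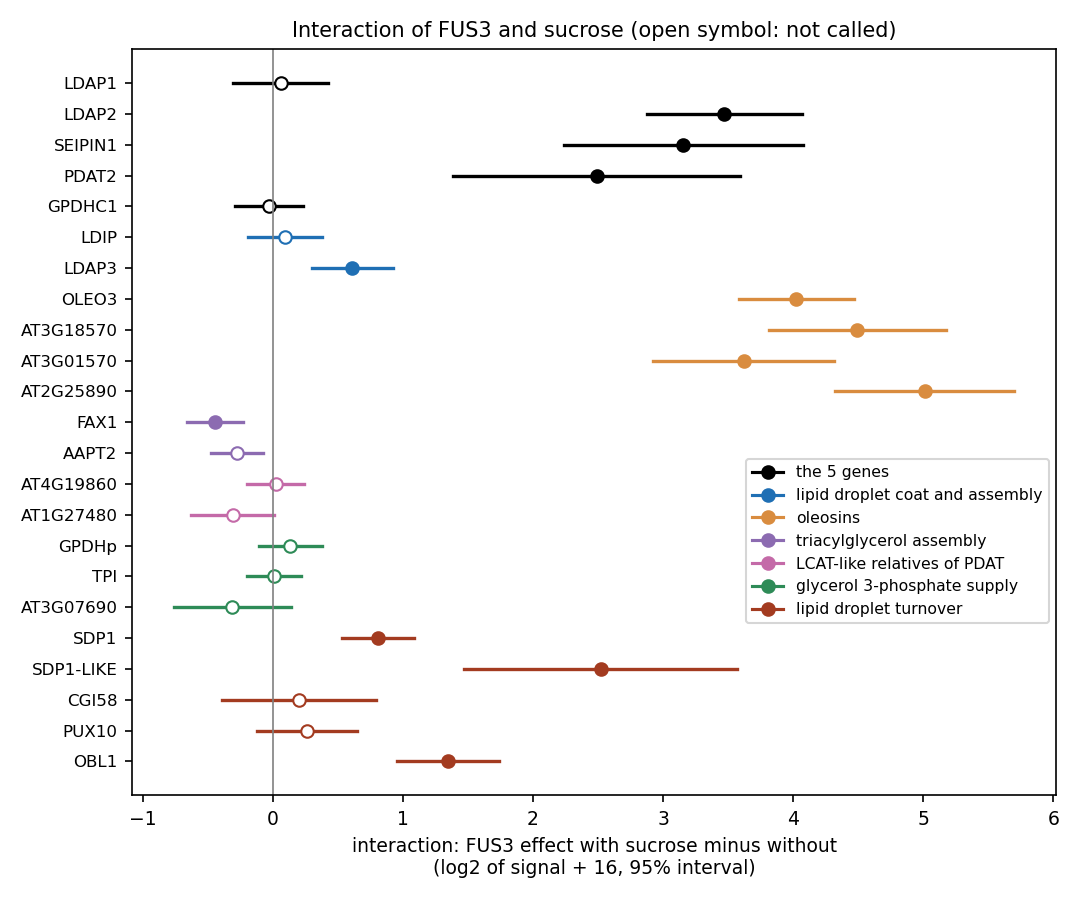
Interaction of FUS3 and sucrose (horizontal axis, log2 with 16 added) for the 5 genes and the 18 measured genes of the related lists, with 95% intervals and open symbols where not called. LDAP2, SEIPIN1 and PDAT2 lie at 3.47, 3.16 and 2.49, the 4 oleosin genes between 3.62 and 5.01, and LDAP1 and GPDHC1 at 0.06 and -0.03.

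Few other genes of oil assembly could be read. On the list of triacylglycerol assembly 2 of 27 loci were measured. FAX1 (AT3G57280), which encodes a fatty acid exporter of the plastid envelope, fell by 0.50 (SE 0.07, limma adjusted p = 6.14e-05) in FUS3 with sucrose, from 4274 ± 46.7 in WT to 3023 ± 74.5. Without sucrose its FUS3 difference was -0.05 (SE 0.07), and the interaction was -0.44 (SE 0.10, adjusted p = 0.00490). AAPT2, an aminoalcohol phosphotransferase gene of phospholipid synthesis, was called for sucrose in WT, at 0.28 (SE 0.07, 0.00632), a call lost with array medians subtracted (0.165). Of the listed relatives of PDAT 2 of 4 were measured. Neither was called higher in any comparison, where 9.5% to 21.8% of all probe sets were. AT1G27480 fell with sucrose in FUS3 by 0.65 (SE 0.11, limma adjusted p = 1.92e-04), the comparison in which PDAT2 rose by 2.92. Its 2 other calls, -0.33 in FUS3 with sucrose and -0.34 with sucrose in WT, were lost in 4 and 5 alternatives, and AT4G19860 was not called in any comparison.

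For glycerol 3-phosphate supply 3 of 8 further loci were measured. GPDHp (AT5G40610), the plastid counterpart of GPDHC1, had signals of 964, 996 and 945 in WT without sucrose, 1316, 1226 and 1239 with sucrose, 1279, 1253 and 1475 in FUS3 without and 1872, 2026 and 1823 with sucrose. GPDHp rose in FUS3 by 0.45 (SE 0.08, limma adjusted p = 0.00152) without and by 0.59 (SE 0.08, 4.23e-05) with sucrose, beside 0.49 and 0.46 for GPDHC1. Its interaction was 0.14 (SE 0.11, adjusted p = 0.443). Sucrose raised it by 0.37 (SE 0.08, 0.00311) in WT, which was 0.23 (0.0558) with array medians subtracted, and by 0.51 (SE 0.08, 1.44e-04) in FUS3. TPI, for the cytosolic triose phosphate isomerase, was called only for sucrose in FUS3, at 0.19 (SE 0.07, adjusted p = 0.0420), a call lost under 14 of 21 alternatives (up to 0.692), and AT3G07690 in none.

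Of genes that break droplets down, 5 of 6 loci were measured. FUS3 without sucrose raised 1 and lowered 1 of them, where 9.5% and 7.03% of all probe sets were called higher and lower. FUS3 with sucrose raised 3, where 18.9% of all probe sets were called higher, and 1 of the 3, CGI58, lost its call in 6 of 21 alternatives. OBL1 (AT3G14360), which encodes an oil body lipase, had signals of 200.3, 151 and 141 in WT without sucrose, 323, 325 and 352 with sucrose, 496, 593 and 572 in FUS3 without and 2896, 3049 and 2534 in FUS3 with sucrose. The groups did not overlap, and OBL1 was called for both factors. It rose in FUS3 by 1.67 (SE 0.13, limma adjusted p = 1.07e-06) without and by 3.02 (SE 0.13, 2.94e-10) with sucrose, and with sucrose in WT by 0.97 (SE 0.13, 7.53e-05). Its interaction was 1.35 (SE 0.18, 9.80e-05).

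The lipase genes SDP1 and SDP1-LIKE were highest in different groups. SDP1, for the main lipase of oil breakdown after germination, had 1596, 1659.5 and 1715 in WT without sucrose, and all 9 other arrays lay between 884 and 1152. SDP1-LIKE, its close relative, had 197, 191 and 233 in FUS3 with sucrose and between 9.59 and 53.8 on the other 9 arrays, the pattern in which PDAT2 also rose. SDP1-LIKE rose by 2.46 (SE 0.35, limma adjusted p = 5.65e-05) in FUS3 with sucrose, with an interaction of 2.52 (SE 0.49, 0.00174). With 1 added these were 3.13 and 3.28, and with 64 added 1.595 and 1.601. SDP1 fell by 0.65 (SE 0.09, limma adjusted p = 2.31e-04) in FUS3 without sucrose and differed by 0.16 (SE 0.09, 0.187) with sucrose, which gave an interaction of 0.81 (SE 0.13, 3.32e-04). CGI58, for a lipase regulator, rose by 0.59 (SE 0.20, adjusted p = 0.0266) in FUS3 with sucrose, a call lost without replicate 3 of WT (0.36, adjusted p = 0.132), without any single array of FUS3 with sucrose and in 2 other forms of the model. PUX10 was not called in any comparison.

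**Figure D4:**
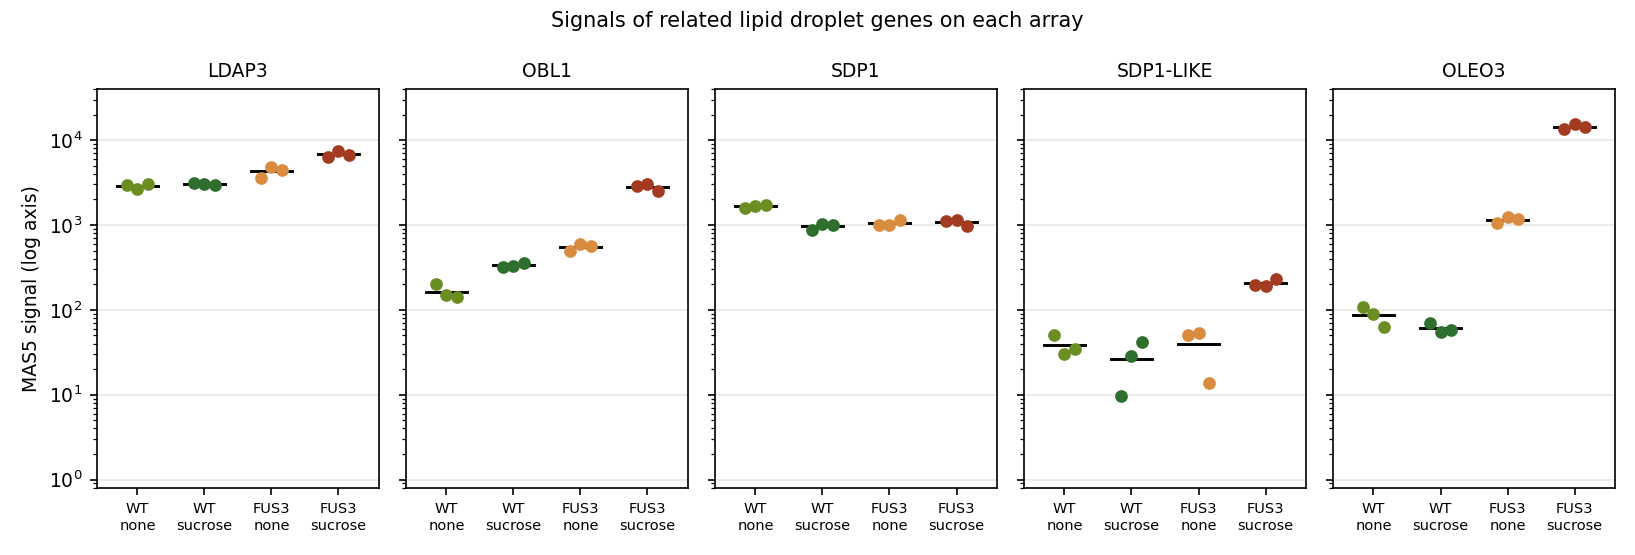
MAS5 signal (vertical axis, log scale) of LDAP3, OBL1, SDP1, SDP1-LIKE and OLEO3 on each of the 12 arrays, with points for single arrays and a black line for the mean of 3. SDP1 is highest in WT without sucrose, at 1596 to 1715, and SDP1-LIKE in FUS3 with sucrose, at 191 to 233.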

How the data were processed

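The deposited intensity is 1 linear MAS5 signal per probe set and array. The authors made it with Affymetrix Expression Console, per the submitters' processing notes, with no version stated. Trimming 2% of signals at either end left a mean of 1000.08 to 1000.09 on each array. Array medians were 375 to 443, and no 2 arrays were identical. The labels call the arrays of a group biological replicates.

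Of 22810 probe sets, 64 controls were left out. Signals had 16 added and were taken to log2. The 4 group means were fitted over all 12 arrays with limma 3.58.1 (R 4.3.3; lmFit, contrasts.fit, eBayes with a trend), the linear model that underlies the analysis of variance on FUS3 and sucrose named in the design text. Benjamini-Hochberg adjustment ran over 22746 probe sets within each comparison. The median SE was 0.15, and 0.22 for the interaction. With 3 arrays a group, the number of arrays sets the precision. The procedure was tested on simulated data.

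Genes come from the probe table, where 13513 tested probe sets name 1 gene, 503 several and 8730 none, and from RefSeq's TAIR10.1 gene table. Some names in common use, among them LDAP1, LDAP2, LDAP3, SEIPIN1, PDAT2, LDIP, OBL1, FAX1, CGI58 and PUX10, are not in that table and were paired with the loci by hand. The 5 genes and the lists were chosen with earlier results of these data known. None of the 10 loci on a list of seed oil regulators had a probe set of its own. Named genes are the 5, the 3 likest to each by Pearson correlation, and measured members of the lists. Plots were drawn with matplotlib 3.10.9.

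Alternatives were 1 or 64 added, quantile normalization, array medians subtracted, the 40% dimmest probe sets left out, only the arrays compared, a replicate block, no trend, no moderation and each array left out. No member had a second probe set. Same-numbered arrays of different groups had correlations of -0.01 to 0.11 in their deviations from group means, so the numbers were not taken to pair the samples.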

Additional observations from a re-analysis of the deposited data

Results flagged for a closer look

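By the interaction test, the FUS3 effect differed with sucrose for 3 of the 5 genes, all positive. Of all probe sets, 9.78% had a positive call and 13.3% a negative one. The difference was 3.47 for LDAP2, 3.16 for SEIPIN1 and 2.49 for PDAT2 on the log2 scale, in limma at adjusted p = 8.93e-07, 9.27e-05 and 0.00273. In FUS3 with sucrose each of the 3 arrays lay above all 9 others for LDAP2, SEIPIN1 and PDAT2. This was also so for LDAP1 and GPDHC1, whose interactions were not called. The share of all probe sets with this pattern was not counted. On the arrays of FUS3 with sucrose, 25.2% of all probe sets lay wholly above WT with sucrose and 27.6% wholly above FUS3 without sucrose.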

How the results depend on the processing

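The 5 genes gave 210 results under settings other than leaving out an array, of which 197 kept their direction and their side of the threshold. Leaving out single arrays gave 300, of which 271 did. The interactions of LDAP2, SEIPIN1 and PDAT2 stayed called in all alternatives run for them. In FUS3 without sucrose, LDAP1 lost its call in the unmoderated model (0.48, adjusted p = 0.0544) and ran from 0.35 to 0.56 with arrays left out, SEIPIN1 from 0.96 to 1.53 and PDAT2 from -0.082 to 0.45. For sucrose in WT, SEIPIN1 was -0.019 with 1 added, -0.075 with array medians subtracted and -0.15 to 0.19 with arrays left out. GPDHC1 for sucrose in WT lost its call with quantile normalization (0.23), array medians (0.10), no trend, no moderation or only the arrays compared (0.25 in each), and ran from 0.21 to 0.33 with arrays left out. For sucrose in FUS3 the same settings gave 0.22, 0.079 and 0.22, with 0.18 to 0.30 for arrays left out. The interaction of LDAP1 ran from -0.050 to 0.19 and that of GPDHC1 from -0.11 to 0.044. Causes were not tested. The count of probe sets called in FUS3 without sucrose was 3758, and 2418 to 4018 with arrays left out, the lowest without replicate 1 of WT. With array medians subtracted the split of higher and lower calls went from 2160 and 1598 to 1739 and 2091 for FUS3 without sucrose, from 3618 and 2301 to 2333 and 4235 for sucrose in WT, and from 4967 and 3972 to 3257 and 5353 for sucrose in FUS3. With a replicate block 3974 probe sets were called in FUS3 without sucrose and 5550 for the interaction (5253 without it), and no call of the 5 genes changed. SEIPIN1 and PDAT2 gave no value where the dimmest probe sets were left out. Low signal limits the sizes given for these 2 genes and for SDP1-LIKE.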
